A study of Mus musculus with 28 samples.

Results

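The 9 genes described here encode the CCN proteins *Ccn1*, *Ccn2*, *Ccn3*, *Ccn4* and *Ccn5*, the transcriptional co-activators *Yap1* and *Wwtr1* (TAZ), and the mechanically gated ion channels *Piezo1* and *Piezo2*. They were chosen by gene symbol, with no threshold on a measured value, and are 9 of the 25719 genes in the count tables. All 9 had enough reads to be tested in each comparison. None of them passed the test between Fosl-2(Tg) and WT tendons at either stage, whereas 3 of them (*Ccn4*, *Ccn5* and *Piezo2*) differed between established and early WT tendons.

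CCN proteins are secreted matricellular proteins that bind integrins, heparan sulfate proteoglycans and growth factors in the extracellular matrix. In fibroblasts under tension, YAP and TAZ move to the nucleus and bind TEAD transcription factors, and *Ccn1* (CYR61) and *Ccn2* (connective tissue growth factor, CTGF) are classical target genes of this complex. PIEZO channels open when the membrane is stretched and let calcium into the cell. YAP and TAZ are regulated largely through phosphorylation and localization and PIEZO channels through gating, so the mRNA levels given here are not a measure of their activity.

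Bulk RNA-sequencing of tail tendon fascicles was performed in 28 mice, 1 library per mouse. The Fosl-2(Tg) mouse is a model of systemic sclerosis that carries murine *Fosl2*, a subunit of the AP-1 transcription factor, under the broadly active MHC class I promoter H2Kb, followed by an eGFP marker, at a random insertion site. WT mice bred alongside, without the transgene, served as controls, and the strain of all mice was C57BL/6. The early cohort held 7 WT and 8 Fosl-2(Tg) mice, all male. The established cohort held 6 WT mice (5 female, 1 male) and 7 Fosl-2(Tg) mice (6 female, 1 male). The established mice were the older cohort, and the labels give a stage and no age for each mouse. Sex and stage therefore nearly coincide, and sex, age and any difference in handling between the cohorts cannot be told apart from stage. Each tendon sample held all of its cell types, so fewer cells of a type and less RNA per cell cannot be told apart in any value below.

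Libraries held between 9645598 and 66894396 counted reads. CPM are counts per 1e6 reads of a library size multiplied by its TMM factor, described below, so summed CPM are not a share of the reads. Counts of *Fosl2*, which sum the endogenous gene and the transgene, ranged from 58.8 to 136 CPM (median 75.8) in early WT mice and from 63.4 to 156 CPM (median 87.1) in early Fosl-2(Tg) mice. They ranged from 78.1 to 169 CPM (median 105) in established WT mice and from 121 to 160.1 CPM (median 145) in established Fosl-2(Tg) mice. The groups overlapped at both stages, and the log2 fold change was 0.20 (SE 0.24, adjusted p = 0.918) in early and 0.38 (SE 0.15, adjusted p = 0.141) in established mice, where it was called with library totals in place of TMM scaling (0.70, adjusted p = 0.00341) and in 1 of 13 fits that left out 1 mouse (adjusted p = 0.0406, without WT replicate 2). The 12 tendon fibroblast markers, none of which was at 0, summed to 102100 to 192832 CPM in established WT mice and to 7279 to 81490 CPM in established Fosl-2(Tg) mice, without overlap (exact two-sided permutation p = 0.00117, the smallest this design allows). In the early cohort the same sum was 194247 to 548866 CPM in WT and 253189 to 618747 CPM in Fosl-2(Tg) mice. The 12 skeletal muscle markers varied between single mice from 56.3 to 21941 CPM in sum. Their median sum was 1384 CPM in early WT and 5654 CPM in early Fosl-2(Tg) mice (exact two-sided permutation p = 0.148). In the established cohort it was 2239 CPM in WT and 465 CPM in Fosl-2(Tg) mice (exact two-sided permutation p = 0.505). The part of these marker differences in the values below was not tested except where a fit is named.

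The promoters of *Ccn1* and *Ccn5* are shown because the first is a classical YAP target gene and the last differed between stages. Each line gives the 250 bases before the annotated start of the canonical transcript, 5′ to 3′ on the strand of the gene, from the GRCm39 genome (GENCODE), and capitals mark every match to the TEAD core motif GGAATG on either strand. The window lies at chr3:145355739-145355988 on the minus strand for *Ccn1* and at chr2:163662503-163662752 on the plus strand for *Ccn5*.
Ccn1: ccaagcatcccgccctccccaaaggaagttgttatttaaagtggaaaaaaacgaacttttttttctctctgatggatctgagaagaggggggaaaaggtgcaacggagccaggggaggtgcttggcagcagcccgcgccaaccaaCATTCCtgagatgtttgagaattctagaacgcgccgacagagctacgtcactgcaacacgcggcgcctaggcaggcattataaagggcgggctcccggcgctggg
Ccn5: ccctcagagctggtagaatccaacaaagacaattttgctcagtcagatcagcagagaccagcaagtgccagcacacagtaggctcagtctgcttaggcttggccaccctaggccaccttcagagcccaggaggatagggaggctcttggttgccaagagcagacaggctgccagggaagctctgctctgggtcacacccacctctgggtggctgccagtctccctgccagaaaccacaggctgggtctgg
*Ccn1* held 1 match, which starts 105 bases before the transcription start and reads on the other strand. *Yap1* (1 match, 77 bases before the start) and *Wwtr1* (1 match, 218 bases before the start) also held the motif, while *Ccn3*, *Ccn4*, *Ccn5*, *Piezo1* and *Piezo2* did not. The motif was found in 12.1% of the 21571 protein-coding promoter windows of this length. None of these 8 windows held the AP-1 motif TGANTCA, found in 6.18% of all windows, or a CArG box, the binding motif of SRF, found in 1.41%. A match is a description of the letters and was not tested as a binding site.

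Levels were first compared between the genes, for which CPM after TMM scaling were divided by the annotated exon length (CPM per kb). *Ccn2* was the most abundant of the 9 genes in each of the 4 groups, with means of 162 CPM per kb (SD 127, n = 7) in early WT, 235 (SD 217, n = 8) in early Fosl-2(Tg), 146 (SD 41.7, n = 6) in established WT and 166 (SD 88.4, n = 7) in established Fosl-2(Tg) mice. *Piezo2* had the lowest mean in all 4 groups, between 1.98 (SD 0.424, n = 7) in early WT and 4.10 CPM per kb (SD 0.782, n = 6) in established WT mice. In established Fosl-2(Tg) mice its range (2.11 to 5.92 CPM per kb) lay within that of *Ccn4* (1.74 to 8.73). In early WT mice *Ccn1* and *Piezo1* followed *Ccn2* with overlapping ranges, then came *Wwtr1*, *Ccn5*, *Ccn4*, *Ccn3* and *Yap1*, each overlapping with the next, and then *Piezo2* below all of them. *Wwtr1* and *Yap1* lay below the range of *Piezo1*, while the highest mice for *Ccn4* (32.7), *Ccn3* (26.7) and *Ccn5* (26.1) reached into it (25.1 to 45 CPM per kb). In established WT mice *Ccn2* stood apart, *Ccn5*, *Ccn1* and *Piezo1* overlapped below it, and *Wwtr1*, *Ccn3* and *Yap1* followed, each overlapping with the next, with the highest *Wwtr1* at the level of the lowest *Ccn1* (both 22.1 CPM per kb). *Ccn5* ranked 5 in early WT mice at 16.8 CPM per kb (SD 6.03, n = 7) and 2 in established WT mice at 41.3 (SD 12.9, n = 6). *Ccn4* changed from rank 6 at 15.9 (SD 8.56, n = 7) to rank 8 at 5.57 CPM per kb (SD 0.600, n = 6), where it overlapped with *Piezo2*. The Fosl-2(Tg) mice held the same first 3 genes as WT mice of their stage in both cohorts. In the established cohort *Ccn1* ranked above *Ccn5* in Fosl-2(Tg) mice and below it in WT mice, with overlapping ranges in each. *Ccn6*, the remaining CCN gene, had between 0 and 16 counts per library and was too low to be tested.

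**Figure D1:**
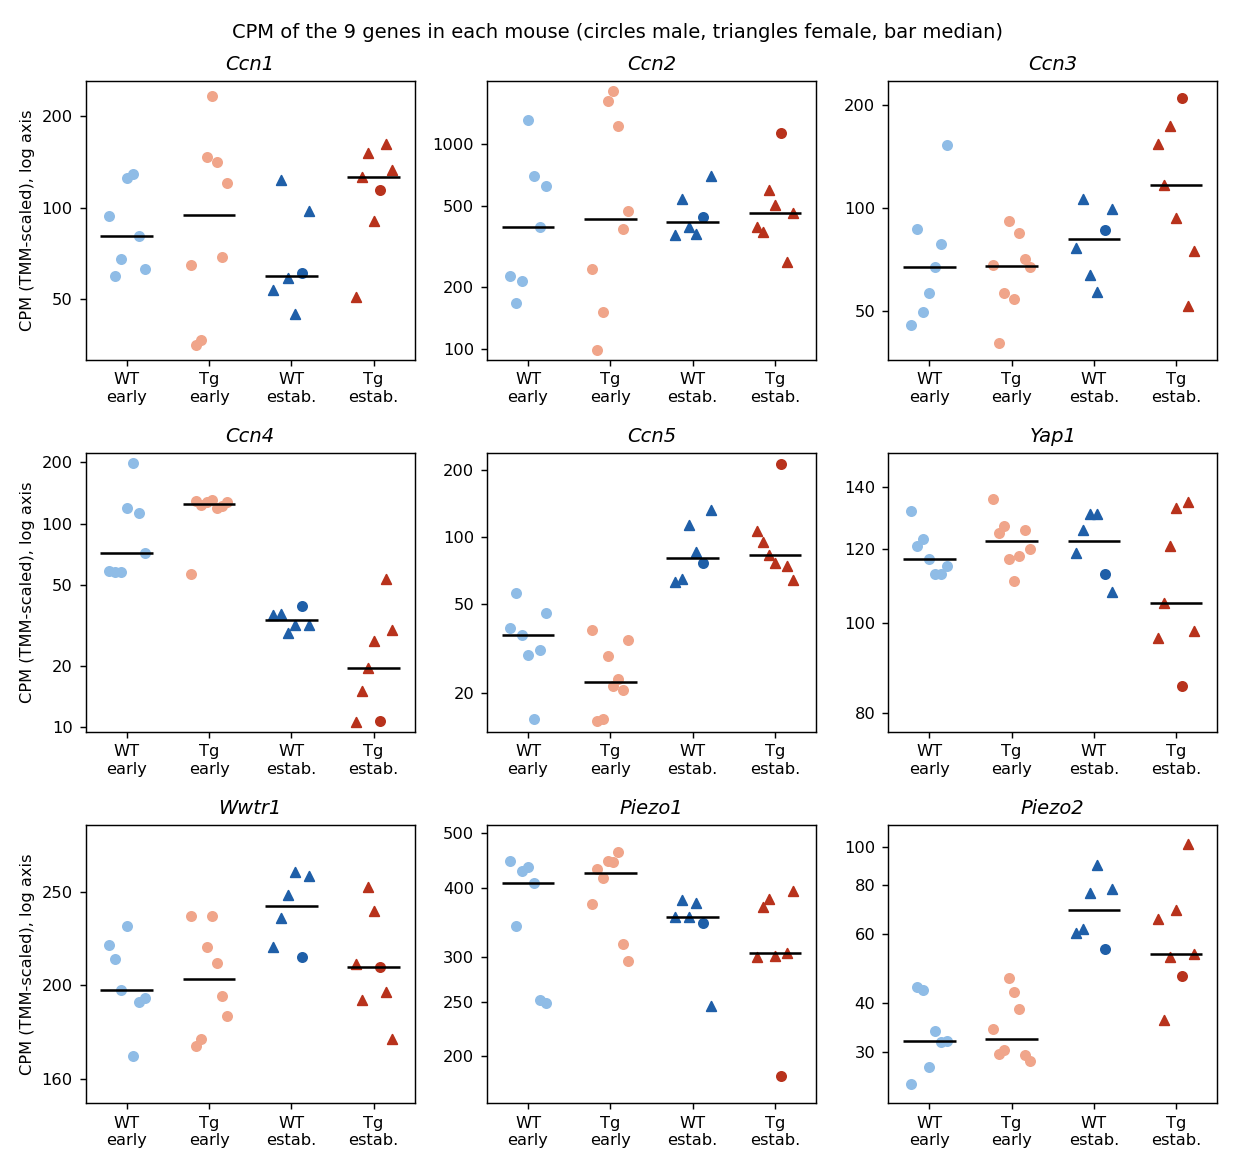
CPM after TMM scaling (log axis, a separate range for each gene) of the 9 genes in each of the 28 mice, by genotype and stage, with males as circles, females as triangles and the group median as a bar. *Ccn4* is lower and *Ccn5* and *Piezo2* are higher in all 6 established WT mice than in all 7 early WT mice, while the genotypes overlap for every gene at both stages.

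The genotypes were compared at each stage by the quasi-likelihood test of edgeR. Adjusted p are Benjamini-Hochberg values over every gene tested, and a gene was called at an adjusted p of at most 0.05. In the early cohort 0 of the 9 genes were called, beside 6 of all 15138 genes tested (0.0396%), and DESeq2 likewise called 0 of the 9. The smallest adjusted p was 0.818, and 1 gene (*Ccn5*) had an unadjusted p under 0.05, as did 6.06% of all genes. In the established cohort 0 of 9 were called by edgeR and 0 by DESeq2, while edgeR called 1032 of 15862 genes (6.51%), the smallest adjusted p was 0.13, and 2 genes (*Ccn1* and *Ccn3*) had an unadjusted p under 0.05, as did 26.6% of all genes. In neither cohort did any of the 9 genes separate the genotypes without overlap, which 0.0528% of genes did in early and 3.81% in established mice. The median log2 fold change of the 9 genes was 0.05 in early and -0.09 in established mice, beside -0.01 and 0.01 over all genes. An interaction term in a fit of all 28 mice tested whether the genotype effect differed between stages, and it was called for 0 of the 9 genes by edgeR and 0 by DESeq2 (smallest adjusted p 0.176, 1 unadjusted p under 0.05, against 25.3% of all genes), beside 7.43% of all genes called.

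WT mice of the established cohort were compared with early WT mice in the same fit. Of the 9 genes 3 were called, *Ccn5* and *Piezo2* higher and *Ccn4* lower, beside 5.81% of the 16082 genes tested. The same 3 genes separated the cohorts without overlap, which 2.22% of all genes did. All 3 calls held in each of the 28 fits that left out 1 mouse, with DESeq2 and without the established males. Of those 28 fits, the ones without a Fosl-2(Tg) mouse left both WT groups whole. The fit without the established males set early males against established females, so it cannot separate sex from stage.

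**Figure D2:**
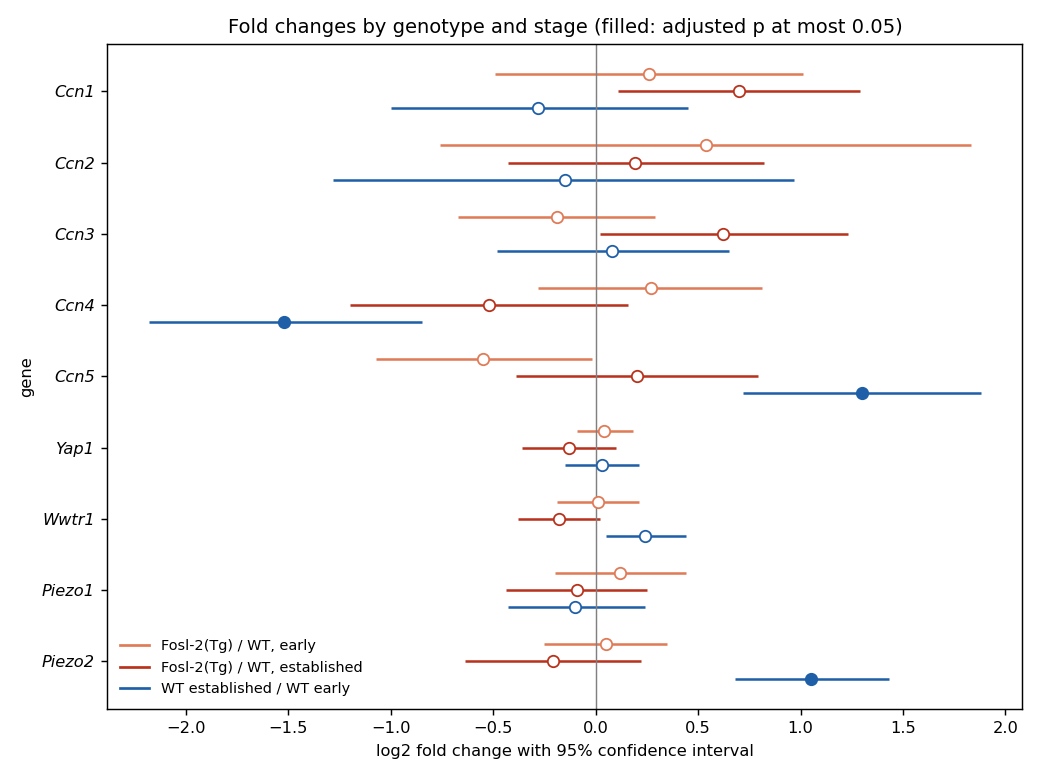
Log2 fold changes with 95% confidence intervals (edgeR) of the 9 genes between Fosl-2(Tg) and WT mice in the early and established cohorts and between established and early WT mice. Filled points have an adjusted p of at most 0.05, and only *Ccn4*, *Ccn5* and *Piezo2* have one, in the comparison of stages.

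*Ccn1* (chr3:145352720-145355738, GRCm39), a secreted integrin ligand that is induced within minutes to hours of stretch or serum, ranged from 59.8 to 129 CPM (median 80.7) in early WT mice and from 35.5 to 232 CPM (median 94.4) in early Fosl-2(Tg) mice. Established mice ranged from 44.8 to 123 CPM (median 59.8) in WT and from 51.1 to 161 CPM (median 126) in Fosl-2(Tg) mice. The established groups overlapped, since the lowest Fosl-2(Tg) mouse (51.1 CPM) lay below 5 of the 6 WT mice, but 6 of the 7 Fosl-2(Tg) mice were above the WT mean. The estimate in the established cohort was 1.62-fold (log2 0.70, 95% confidence interval 0.11 to 1.29), which did not pass the adjustment over all genes (adjusted p = 0.13, 0.0767 with DESeq2). In the early cohort the log2 fold change was 0.26 (interval -0.49 to 1.01, adjusted p = 0.927), and it was -0.01 without the Fosl-2(Tg) mouse with the highest value (replicate 5). The genotype effects of the stages differed by 0.43 on the log2 scale (interval -0.56 to 1.42, adjusted p = 0.603).

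*Ccn2* (chr10:24471333-24474900), a profibrotic matricellular protein and a common readout of YAP and TGF-β activity, varied most of the 9 genes between mice of the early groups. It ranged from 168 to 1310 CPM (median 393) in early WT and from 99.1 to 1806 CPM (median 428) in early Fosl-2(Tg) mice, an 18.2-fold range in the latter. The established range was from 359 to 699.8 CPM (median 416) in WT and from 266 to 1123 CPM (median 458) in Fosl-2(Tg) mice. Of the early Fosl-2(Tg) mice 3 had 1217 CPM or more and 5 had 472 CPM or less, and 1 of the 7 early WT mice reached the upper range. In both genotypes the 3 lowest early mice were replicates 1 to 3. With a block for the replicate number, the early estimate of *Ccn2* was 0.20 (SE 0.31, against 0.61 without it). The log2 fold change was 0.54 (interval -0.76 to 1.83, adjusted p = 0.917) in the early cohort and 0.19 (interval -0.43 to 0.82, adjusted p = 0.697) in the established cohort. With the summed skeletal muscle markers as a covariate, the early estimate was -0.02 for *Ccn2* and -0.08 for *Ccn1*. The established estimate of *Ccn2* was -0.11 without the single male Fosl-2(Tg) mouse, which had the 1123 CPM.

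*Ccn3* (chr15:54609012-54620154), a CCN protein that counteracts several effects of *Ccn2* in fibrosis models, ranged from 45.7 to 152 CPM (median 67.5) in early WT and from 40.5 to 91.6 CPM (median 67.8) in early Fosl-2(Tg) mice. It ranged from 56.9 to 106 CPM (median 81.3) in established WT and from 52 to 209 CPM (median 117) in established Fosl-2(Tg) mice. In the established cohort 4 Fosl-2(Tg) mice were above every WT mouse and 1 was below every WT mouse. The estimate there was 1.54-fold (log2 0.62, interval 0.02 to 1.23, adjusted p = 0.178), and in the early cohort the log2 fold change was -0.19 (interval -0.67 to 0.29, adjusted p = 0.918). The difference between the 2 genotype effects was 0.82 (interval 0.04 to 1.59, adjusted p = 0.176). Without the male Fosl-2(Tg) mouse (209 CPM) the established estimate was 0.45. Between WT stages the log2 fold change was -0.28 for *Ccn1* (adjusted p = 0.679), -0.15 for *Ccn2* (adjusted p = 0.898) and 0.08 for *Ccn3* (adjusted p = 0.887).

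*Ccn4* (WISP1, chr15:66763060-66795050), a WNT-induced matricellular protein of bone, tendon and fibrotic tissue, fell between the stages in WT mice. It ranged from 57.9 to 199 CPM (median 71.6) in early WT mice and from 29 to 39.1 CPM (median 33.7) in established WT mice, so that every early mouse was above every established mouse. The fold change was 0.35 (log2 -1.52, SE 0.32, interval -2.18 to -0.85, adjusted p = 0.00669). The only male among the established WT mice had the highest established value (39.1 CPM), which was below all 7 early WT males. The summed tendon fibroblast markers also separated the WT stages (194247 to 548866 CPM in early and 102100 to 192832 CPM in established mice). So did the summed cartilage markers (1357 to 3471 and 887 to 1293 CPM). Of the 12 tendon markers 0 were called between WT stages, and 4 estimates were higher in established mice (median log2 fold change -0.31). Of 8 cartilage markers tested, 1 was called, as lower, and 1 estimate was higher (median -0.77). The part of either list in the stage differences of *Ccn4* and *Ccn5* was not tested. *Ccn4* ranged from 56.2 to 130.3 CPM (median 125) in early Fosl-2(Tg) mice, of which 7 of 8 lay between 119 and 130.3 CPM, and from 10.6 to 53.1 CPM (median 19.5) in established Fosl-2(Tg) mice. These stages again did not overlap, a comparison that was not tested in Fosl-2(Tg) mice. The highest value in the established Fosl-2(Tg) mice was 5.01 times the lowest, against 1.34 times in established WT mice, and 5 of the 7 transgenic mice lay below every WT mouse. The genotype comparison gave a log2 fold change of -0.52 (interval -1.20 to 0.16, adjusted p = 0.307) in the established and 0.27 (interval -0.28 to 0.81, adjusted p = 0.91) in the early cohort. With 1 mouse left out the established estimate ran from -0.85, without the Fosl-2(Tg) mouse at 53.1 CPM (replicate 6), to -0.39, without Fosl-2(Tg) replicate 1. The adjusted p of these 13 fits lay between 0.0502 and 0.457, and 0 were called. The genotype effects of the stages differed by -0.79 (interval -1.67 to 0.08, adjusted p = 0.246).

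*Ccn5* (WISP2, chr2:163662753-163675066), the CCN protein that lacks the C-terminal cysteine knot domain and opposes *Ccn2* in fibrosis models, rose between the stages in WT mice. It ranged from 15.2 to 56.4 CPM (median 36.3) in early WT mice and from 62.8 to 132 CPM (median 81) in established WT mice, without overlap. The increase was 2.47-fold (log2 1.30, SE 0.28, interval 0.72 to 1.88, adjusted p = 0.00749), and the established WT male had 76.4 CPM, above all early WT males. It rose while the summed tendon and cartilage markers given above were lower. In Fosl-2(Tg) mice the range was 15 to 38.4 CPM (median 22.3) in the early and 64 to 214 CPM (median 83.7) in the established cohort, where the highest value again belonged to the single male. *Ccn5* had the lowest unadjusted p of the 9 genes in the early genotype comparison (log2 fold change -0.55, interval -1.07 to -0.02), which was lost on adjustment (adjusted p = 0.818). The established estimate was 0.20 (interval -0.39 to 0.79, adjusted p = 0.666), and -0.09 without the male Fosl-2(Tg) mouse. The difference of the genotype effects was 0.74 (interval -0.05 to 1.53, adjusted p = 0.227).

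*Yap1* (chr9:7932000-8004661) had the smallest ratio of highest to lowest mouse of the 9 genes in 3 of the 4 groups (1.18 in early WT, 1.22 in early Fosl-2(Tg) and 1.21 in established WT mice), and *Wwtr1* had it in established Fosl-2(Tg) mice (1.43, against 1.58 for *Yap1*). *Yap1* ranged from 113 to 132 CPM (median 117) in early WT, from 111 to 136 CPM (median 123) in early Fosl-2(Tg), from 108 to 131 CPM (median 123) in established WT and from 85.6 to 135 CPM (median 105) in established Fosl-2(Tg) mice. In the established cohort 4 of the 7 Fosl-2(Tg) mice were below every WT mouse. The intervals of the genotype effect were narrow, at -0.09 to 0.18 around 0.04 (adjusted p = 0.93) in the early cohort and -0.36 to 0.10 around -0.13 (adjusted p = 0.449) in the established cohort. Between WT stages the log2 fold change was 0.03 (interval -0.15 to 0.21, adjusted p = 0.876).

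*Wwtr1* (chr3:57363067-57483331), which encodes the YAP paralog TAZ, ranged from 169 to 230.5 CPM (median 198) in early WT and from 173 to 236 CPM (median 203) in early Fosl-2(Tg) mice. Established mice ranged from 214 to 262 CPM (median 242) in WT and from 176 to 253 CPM (median 209) in Fosl-2(Tg) mice, of which 5 of 7 lay below every WT mouse. The established log2 fold change was -0.18 (interval -0.38 to 0.02, adjusted p = 0.244), and the early one was 0.01 (interval -0.19 to 0.21, adjusted p = 0.985). Established WT mice had an estimate of 0.24 over early WT mice (interval 0.05 to 0.44), which did not pass the adjustment (adjusted p = 0.122).

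*Piezo2* (chr18:63143284-63520260), best known as the touch and proprioception channel of sensory neurons, rose 2.08-fold between the stages in WT mice (log2 1.05, SE 0.18, interval 0.68 to 1.43, adjusted p = 0.00127). It ranged from 24.9 to 44 CPM (median 32) in early WT and from 55 to 90.2 CPM (median 69.1) in established WT mice, without overlap. The established WT male had the lowest established value, 55 CPM, which was above every early WT male. Established Fosl-2(Tg) mice were more spread, from 36.2 to 102 CPM (median 53.5), and overlapped with early Fosl-2(Tg) mice, which ranged from 28.5 to 46.4 CPM (median 32.5). The genotype effect was 0.05 (interval -0.25 to 0.35, adjusted p = 0.971) in early and -0.21 (interval -0.64 to 0.22, adjusted p = 0.52) in established mice. The 12 Schwann cell and nerve markers summed to 28.6 to 171 CPM in early WT mice and to 38.9 to 109 CPM in established WT mice, and their part in the *Piezo2* level was not tested.

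*Piezo1* (chr8:123208437-123278072), the more widely expressed stretch-activated channel, ranged from 249 to 447 CPM (median 408) in early WT and from 295 to 463 CPM (median 424) in early Fosl-2(Tg) mice. It ranged from 245 to 379.8 CPM (median 355) in established WT and from 184 to 395 CPM (median 305) in established Fosl-2(Tg) mice. The log2 fold change between genotypes was 0.12 (interval -0.20 to 0.44, adjusted p = 0.921) in early and -0.09 (interval -0.44 to 0.25, adjusted p = 0.735) in established mice, and between WT stages -0.10 (interval -0.43 to 0.24, adjusted p = 0.769). *Piezo1* counts are uncertain, because 3924 of its 9939 exon bases are shared with *Ctu2* on the opposite strand and the strand setting of the counting is not given. *Ctu2* was named for this overlap after the values were seen, and its level followed *Piezo1* with r = 0.98 across mice within groups. For *Ccn2*, *Yap1*, *Wwtr1*, *Piezo1* and *Piezo2* the difference of the genotype effects between stages lay between -0.35 and -0.18, with adjusted p between 0.352 and 0.805.

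The 9 genes were then compared across the 28 mice after the mean of each group had been subtracted from log2 CPM, so that neither genotype nor stage enters. Of the 36 pairs, 3 passed a permutation test within groups with Benjamini-Hochberg adjustment over 135 correlations, the others being those of a gene with a gene list. *Ccn1* and *Ccn2* varied together (Pearson's r = 0.74, adjusted permutation p = 0.00337, Spearman's rho = 0.71, adjusted permutation p = 0.00656, and r = 0.63 without the 2 mice farthest out in *Ccn1*). Within groups r was 0.66 in early WT, 0.96 in early Fosl-2(Tg), 0.86 in established WT and -0.03 in established Fosl-2(Tg) mice, and whether the groups differ was not tested. *Ccn4* and *Ccn5* moved in opposite directions (r = -0.71, adjusted permutation p = 0.00045, rho = -0.71, adjusted permutation p = 0.0009, and r = -0.68 without the 2 farthest mice), with r of -0.90, -0.56, -0.73 and -0.74 in the same order of groups. *Ccn2* and *Yap1* were opposed (r = -0.46, adjusted permutation p = 0.00641, rho = -0.49, adjusted permutation p = 0.0395), with r between -0.78 and -0.56 within groups. All values of a mouse share 1 library and its scaling factor. The permutations treat the mice of a group as exchangeable, although same-numbered early mice deviated together.

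**Figure D3:**
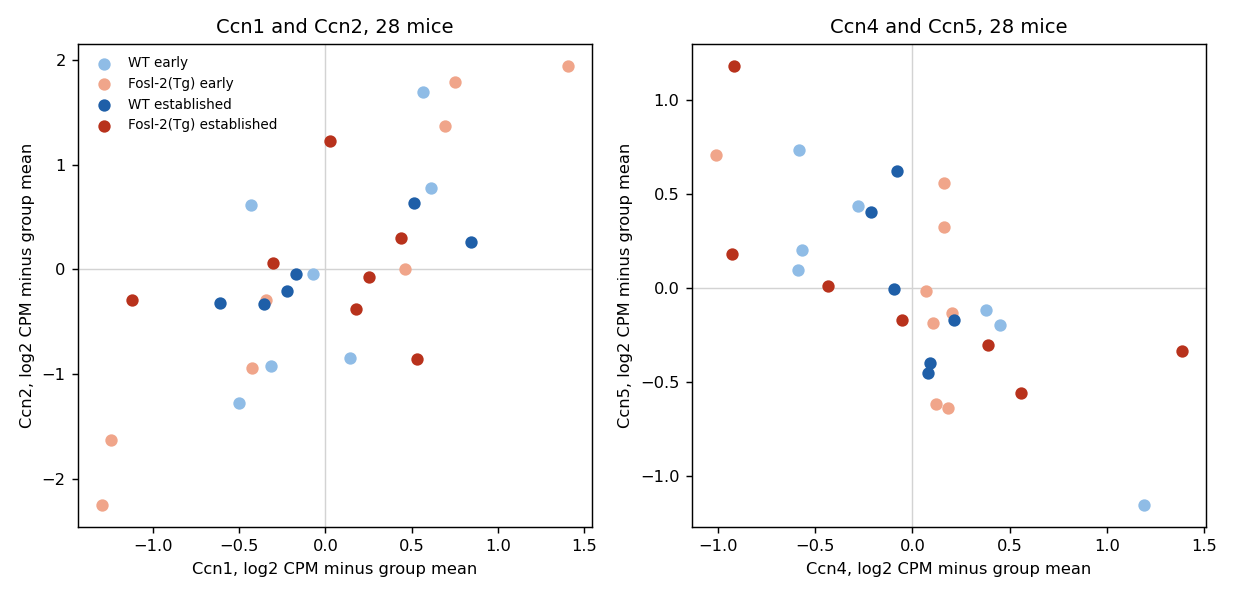
Log2 CPM minus the group mean of *Ccn1* against *Ccn2* (left) and of *Ccn4* against *Ccn5* (right), with 1 point per mouse coloured by group. *Ccn1* and *Ccn2* increase together (r = 0.74), apart from the established Fosl-2(Tg) mice (r = -0.03), and *Ccn5* decreases as *Ccn4* increases (r = -0.71).

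Of the correlations of a gene with a gene list, 13 passed the same test. *Ccn4* and *Ccn5* followed the tendon fibroblast markers within groups in opposite directions. The correlation with log2 summed tendon markers was 0.75 for *Ccn4* (adjusted permutation p = 0.00479, rho = 0.69 with adjusted permutation p = 0.012, and r = 0.69 without the 2 farthest mice) and -0.77 for *Ccn5* (adjusted permutation p = 0.00045, rho = -0.79 with adjusted permutation p = 0.000675, and r = -0.65 without them). Within groups r ran from 0.06 (established WT) to 0.84 (established Fosl-2(Tg)) for *Ccn4* and from -0.90 to -0.71 for *Ccn5*. For *Ccn3* the correlation was -0.61 (adjusted permutation p = 0.0459, rho = -0.61 with adjusted permutation p = 0.027), from -0.22 in established WT to -0.82 in established Fosl-2(Tg) mice. The 12 cartilage markers gave values of the same size, 0.76 for *Ccn4* (adjusted permutation p = 0.00243, rho = 0.70 with adjusted permutation p = 0.00656), -0.77 for *Ccn5* (adjusted permutation p = 0.00045, rho = -0.84 with adjusted permutation p = 0.000675) and -0.66 for *Ccn3* (adjusted permutation p = 0.0211, rho = -0.66 with adjusted permutation p = 0.00985). *Piezo1* had an r of 0.60 with the tendon markers (adjusted permutation p = 0.0317), which was 0.41 without the 2 farthest mice and did not pass as a rank correlation (rho = 0.54, adjusted permutation p = 0.086). *Yap1* was lower where the skeletal muscle markers were higher (r = -0.70, adjusted permutation p = 0.00169, rho = -0.71 with adjusted permutation p = 0.00472), and likewise with the endothelial (r = -0.65, adjusted permutation p = 0.00337, rho = -0.70 with adjusted permutation p = 0.00621) and adipocyte markers (r = -0.66, adjusted permutation p = 0.00337, rho = -0.66 with adjusted permutation p = 0.00709). *Ccn2* was higher where the endothelial markers were higher (r = 0.59, adjusted permutation p = 0.00337, rho = 0.57 with adjusted permutation p = 0.0168), and its r with the muscle markers was 0.46 (adjusted permutation p = 0.0195, rho = 0.46 with adjusted permutation p = 0.0747). *Wwtr1* followed the 16 immediate-early response genes, such as *Fos* and *Egr1* (r = 0.70, adjusted permutation p = 0.00337, rho = 0.68 with adjusted permutation p = 0.0081). The part of any of these lists in the group differences was not tested.

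Among the 15051 genes tested in both cohorts, those with the highest r to each gene over the 28 mice were listed as a description without a test. *Ccn2* was most like *Tubb2a* (0.90), *Spsb1* and *Rcan1* (both 0.88), and *Ccn1* was most like *Nr4a3*, *Tubb2a* (both 0.81) and *Dusp3* (0.80), so that *Tubb2a* stood near both. *Ccn3* was most like *Sema3e* (0.85) and *Arel1* (0.84), *Ccn4* was most like *Igdcc4* (0.92), *Aldh1l2* and *Rhod* (both 0.91), and *Ccn5* was most like *Pptc7* (0.86), *Ifngr1* (0.85) and *Cyth3* (0.83). *Yap1* was most like *Sspn* (0.89), *P3h2* (0.88) and *Gm37804* (0.86), and *Wwtr1* was most like *Csdc2* (0.77), *Fbxw11* (0.75) and *Maff* (0.74). *Piezo1* was most like *Ctu2* (0.98), *Armc5* (0.92) and *Fmnl3* (0.91), and *Piezo2*, with the loosest neighbours, was most like *Xpnpep2*, *Gm42588* (both 0.69) and *Oas1b* (0.68).

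The pathway around these genes was described by 8 gene lists, of which 4 of 118 genes tested (3.39%) were called in the established cohort, against 6.51% of all genes. Of the 19 other YAP/TAZ target genes tested, 0 were called in the early cohort and 1 in the established cohort, *Gadd45a*, a stress-response gene, which rose with a log2 fold change of 1.28 (SE 0.29, adjusted p = 0.0267). Its call was lost without WT replicate 1 (adjusted p = 0.056) or WT replicate 2 (adjusted p = 0.0614). The median log2 fold change of these targets was 0.03 in early and -0.02 in established mice, beside -0.01 and 0.01 over all genes. *Amotl2*, a target that also restrains YAP, had a log2 fold change of 0.20 (adjusted p = 0.854) in early and 0.08 (adjusted p = 0.728) in established mice. The receptor tyrosine kinase *Axl* was at -0.12 (adjusted p = 0.917) and -0.16 (adjusted p = 0.583). *Ankrd1*, among the most inducible YAP targets, was at 0.43 (adjusted p = 0.945) and 0.55 (adjusted p = 0.824), but it had 67.8 CPM in the established Fosl-2(Tg) male, and without that mouse its established estimate was -2.36.

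Of the 7 TEAD and vestigial-like genes tested, 0 were called in either cohort, and *Tead1*, the main DNA-binding partner of YAP, was at 0.09 (adjusted p = 0.91) and -0.11 (adjusted p = 0.461). Of 16 genes of the Hippo kinase cascade, which phosphorylates and retains YAP in the cytoplasm, 1 was called, *Lats1*, which fell by 0.25 on the log2 scale in the established cohort with TMM scaling (SE 0.07, adjusted p = 0.0485) and was at 0.07 with library totals (adjusted p = 0.405). That call was close to the threshold, and it was kept in 3 of the 13 fits that left out 1 mouse (without Fosl-2(Tg) replicate 4 or 6 or WT replicate 6), with adjusted p up to 0.0995 in the others, and lost without a filter on low counts (adjusted p = 0.0703). Its paralog *Lats2* was at 0.00 (adjusted p = 0.998) and -0.03 (adjusted p = 0.821). Of 13 other mechanically gated channels and PIEZO modulators, 1 was called, the acid-sensing channel *Asic1*. *Asic1* ranged from 5.36 to 8.51 CPM in established WT and from 1.88 to 4.54 CPM in established Fosl-2(Tg) mice, without overlap (log2 fold change -0.84, SE 0.18, adjusted p = 0.0204), and it was called in all 13 fits that left out 1 mouse. The stretch-sensitive calcium channel *Trpv4* was at -0.30 (adjusted p = 0.775) and 0.03 (adjusted p = 0.906).

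Of 16 MRTF/SRF factors and contractile targets, a mechanosensitive programme parallel to YAP, 1 was called, *Acta2* (smooth muscle actin), which fell by 0.72 on the log2 scale in the established cohort (SE 0.19, adjusted p = 0.0444). Its call was kept in 4 of 13 fits that left out 1 mouse (without Fosl-2(Tg) replicate 4, 6 or 7 or WT replicate 4), with adjusted p up to 0.0932 in the others, and lost without a filter on low counts (adjusted p = 0.0503) and with library totals (-0.41, adjusted p = 0.0671). *Acta2* is also a pericyte and smooth muscle marker, and the 12 markers of those cells summed to 576 to 848 CPM in established WT and 473 to 679 CPM in established Fosl-2(Tg) mice (exact permutation p = 0.0361). The factors themselves had established estimates of -0.29 (*Srf*, adjusted p = 0.219) and -0.41 (*Mrtfa*, adjusted p = 0.149), after -0.03 (adjusted p = 0.982) and -0.20 (adjusted p = 0.846) in the early cohort. Of 15 CCN receptors and 16 immediate-early genes, 0 were called in either cohort. The median over the immediate-early genes was 0.35 (log2) in the established cohort, with 13 of 16 estimates above 0. It was 0.25 in the early cohort, with 12 of 16 above 0. Between genotypes, their summed CPM gave an exact permutation p of 0.528 in early and 0.204 in established mice. In the early cohort 0 genes of any of the 8 lists were called.

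The genotype effect differed between stages for 5 of the 118 genes of these lists that were tested (4.24%, against 7.43% of all genes). *Asic1* was named by the rule on called genes of a list, and *Tgfb2*, *Amotl1*, *Kcnk2* and *Fgfr2* outside it after their values were seen. Each estimate was above 0 in the early and below 0 in the established cohort with TMM scaling. The difference was -1.26 for *Asic1* (adjusted p = 0.00437) and -1.04 for the growth factor *Tgfb2* (adjusted p = 0.0104), both called in all 28 fits that left out 1 mouse. It was -0.55 for the YAP-binding angiomotin *Amotl1* (adjusted p = 0.0202), -1.03 for the stretch-activated potassium channel *Kcnk2* (adjusted p = 0.0384) and -1.08 for *Fgfr2*, a CCN-binding receptor (adjusted p = 0.0454). The calls of *Kcnk2* and *Fgfr2* were kept in 16 and 9 of the 28 fits, with adjusted p up to 0.0664 and 0.0759. Some calls among these 5 genes were also lost under alternatives other than leaving out 1 mouse, which are not listed here by gene. With library totals the median difference of all genes was 0.53, against 0.02 with TMM scaling. Between WT stages, 6 of 118 genes of the lists were called (5.08%, against 5.81% of all genes), and they too were named after their values were seen. *Dock5* (log2 fold change 0.72) and *Asic3* (0.62) were higher in established mice, and *Kcnk2* (-0.91), *Itgb1* (-0.47), *Tmem120a* (-0.42) and *Mob1a* (-0.35) were lower. *Dock5* and *Kcnk2* were called in all 28 fits that left out 1 mouse and *Asic3*, *Tmem120a*, *Mob1a* and *Itgb1* in 24, 23, 22 and 20 of them. Each of these losses came in a fit without a WT mouse, as the other fits left both WT groups whole. Further calls among these 6 genes were lost under the other alternatives, which are not listed here by gene.

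The scaling of the libraries changed what was called. The TMM factors, which correct for the share of a library taken up by a few abundant genes, had medians of 0.79 in early Fosl-2(Tg), 0.976 in early WT, 1.07 in established WT and 1.33 in established Fosl-2(Tg) mice. With library totals in their place, the median log2 fold change of all genes was -0.19 in early and 0.33 in established mice. *Ccn1* (log2 fold change 1.02, adjusted p = 0.00873) and *Ccn3* (0.97, adjusted p = 0.0181) were then called in the established cohort, where 95.9% of 7544 called genes were higher in Fosl-2(Tg) mice, against 48.3% of 1032 with TMM. *Ccn3* (1.36, adjusted p = 0.0103) and *Ccn5* (1.28, adjusted p = 0.0208) were called for the difference between stages, where the median of all genes was 0.53 and the positive share of calls was 96.9% against 46.1%. Between WT stages the median was 0.23 and the positive share 91.1% against 40.1%, and *Ccn4* (-1.23), *Ccn5* (1.49) and *Piezo2* (1.26) remained called, beside *Wwtr1* (0.46, adjusted p = 0.0196). Which scaling is closer to RNA per cell was not tested.

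**Figure D4:**
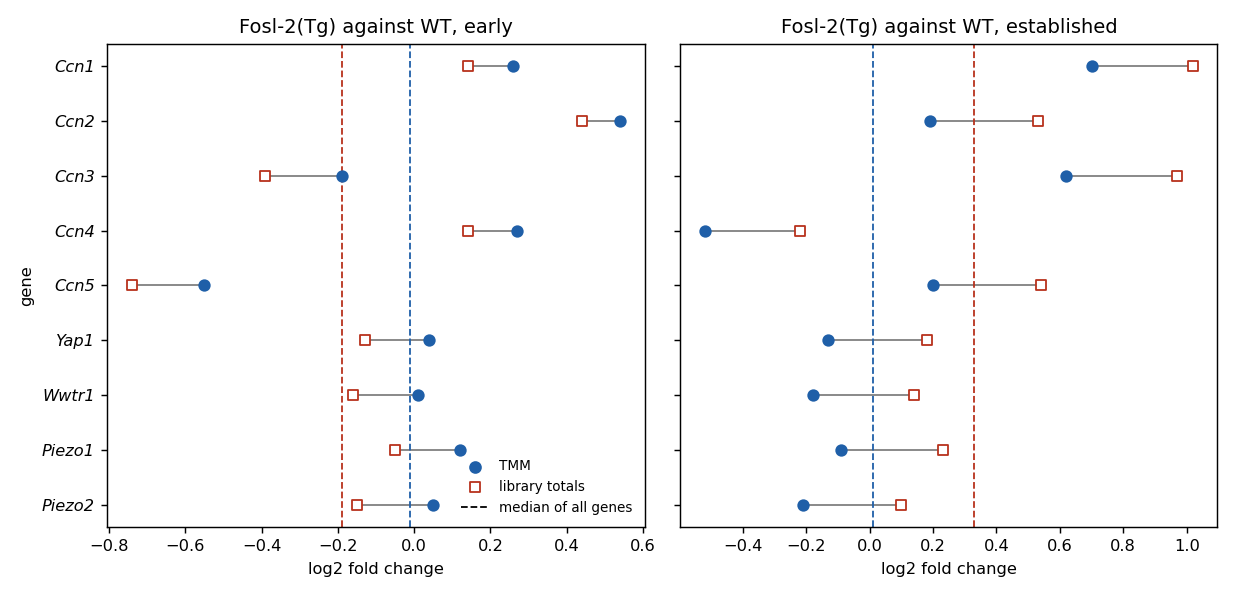
Log2 fold change between Fosl-2(Tg) and WT mice of the 9 genes in the early (left) and established (right) cohorts with TMM scaling (filled circles) and with library totals (open squares). Dashed lines are the median of all genes under each scaling, which shifts from 0.01 to 0.33 in the established cohort, and *Yap1*, *Wwtr1*, *Piezo1* and *Piezo2* change sign with it at both stages.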

How the data were processed

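Total RNA of tail tendon fascicles was depleted of ribosomal RNA and sequenced, and the authors aligned the reads to GRCm39 by STAR, with a GENCODE annotation, and summed them per gene by featureCounts. The deposited files hold raw counts without scaling or a filter, and the strand setting is not given in the sources used here. Genotype, stage, sex and replicate number came from the labels. Of 25719 gene identifiers, 25505 were named with a later GENCODE annotation of the same assembly.

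Genes were kept with filterByExpr (minimum count 10, minimum total 15) and counts were TMM-scaled and tested with the quasi-likelihood test of edgeR 4.0.16 in R 4.3.3, tested on simulated data beforehand, with Benjamini-Hochberg adjustment over all genes. Log2 CPM used a prior count of 2. Confidence intervals are 95%. Alternatives were DESeq2 1.42.0 (the tool of the study), RLE scaling, no filter, a replicate block, a muscle covariate, females only, all mice in 1 fit, each mouse left out and, added after the data were seen, library totals. Replicates are separate mice, and no 2 libraries of a group were alike within sampling noise (chi-square per degree of freedom at least 6.04). Same-numbered early mice deviated together from their group means (r 0.14 to 0.40 over 7 pairs), although 0 mice correlated best with their own number. Established ones did not throughout (-0.23 to 0.69 over 6 pairs), although 3 mice correlated best with their own number. Correlations were tested with 100000 permutations of mice within groups, for which 1e-05 is the smallest p.

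The 9 genes and all lists were chosen with earlier results of these data known. Named beside the 9 were *Ccn6*, *Fosl2*, 8 set pathway genes, up to 5 called genes per list and stage, and the 3 genes most like each member. The count of 1 gene list, 1 gene most like a member and the promoter of *Ccn2* are not reported here. Permutation tests of marker sums used log2 of the summed CPM plus 1 and were two-sided.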

Additional observations from a re-analysis of the deposited data

Results flagged for a closer look

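In 92 groups of mice and genes examined with Dixon's criterion, 10 held 1 mouse that stood apart from its group, and chance gives about 1 in 20. The male established Fosl-2(Tg) mouse (replicate 5) stood apart with 1123 CPM of *Ccn2*, 214 CPM of *Ccn5* and 67.8 CPM of *Ankrd1*. The estimates without that mouse were -0.11, -0.09 and -2.36 on the log2 scale. In early WT mice, replicate 7 stood apart with 152 CPM of *Ccn3* and 19.3 CPM of *Trpv4*, replicate 4 with 311 CPM of *Tead1* and replicate 5 with 11.8 CPM of *Asic1*. In early Fosl-2(Tg) mice, replicate 1 stood apart with 56.2 CPM of *Ccn4* and replicate 5 with 221 CPM of *Amotl2*. Replicate 6 of the established WT mice had the lowest *Piezo1*, 245 CPM.

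The genotype effect differed between the stages, by the interaction term, for *Asic1* (-1.26 on the log2 scale), *Tgfb2* (-1.04), *Amotl1* (-0.55), *Kcnk2* (-1.03) and *Fgfr2* (-1.08), and for 0 of the 9 CCN, YAP/TAZ and Piezo genes.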

How the results depend on the processing

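With edgeR, 0 of the 9 genes were called between genotypes at either stage and 0 for the difference between stages under DESeq2, RLE scaling, no filter, a muscle covariate, females only, all mice in 1 fit and each mouse left out, as far as these were run. With the replicate block, which pairs mice by number, 0 were called at both stages, and no call of the 9 genes changed. It gave -0.01 for *Ccn1* and -0.03 for *Acta2* in the early cohort and -0.68 for *Ankrd1* in the established cohort, where *Lats1* (adjusted p = 0.128) and *Acta2* (adjusted p = 0.0807) lost their calls, as they did without a filter on low counts (0.0703 and 0.0503), and *Acta2* with library totals (0.0671). The numbers of neither cohort are shown to pair mice. DESeq2 called 25 genes in the early, 2177 in the established, 1780 for the difference and 1561 in the stage comparison, where edgeR called 6, 1032, 1195 and 935.

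Library totals called 2 of the 9 genes in the established cohort and 2 for the difference between stages, with 7544 and 8091 genes in all. They changed signs, the median of all genes moving with them: in the early cohort *Yap1* -0.13, *Wwtr1* -0.16, *Piezo1* -0.05, *Piezo2* -0.15, *Tead1* -0.07, *Lats2* -0.16, *Lats1* -0.12 and *Acta2* -0.09. In the established cohort *Yap1* was 0.18, *Wwtr1* 0.14, *Piezo1* 0.23, *Piezo2* 0.10, *Axl* 0.16, *Tead1* 0.22, *Lats2* 0.29, *Srf* 0.02 and *Lats1* 0.07. For the difference *Ccn2* was 0.09, *Yap1* 0.32, *Wwtr1* 0.30, *Piezo1* 0.28 and *Piezo2* 0.25, and between WT stages *Ccn2* was 0.16 and *Piezo1* 0.14.

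With the muscle covariate the early estimates were -0.08 for *Ccn1*, -0.02 for *Ccn2*, 0.03 for *Axl*, -0.01 for *Lats1* and -0.04 for *Acta2*. Among females the established estimates were -0.13 for *Ccn2*, -0.14 for *Ccn5*, 0.01 for *Piezo1*, -1.72 for *Ankrd1* and 0.00 for *Lats2*, and the calls of *Gadd45a* (adjusted p = 0.0564), *Lats1* (0.0767) and *Acta2* (0.0898) were lost. The cause of these changes was not tested.

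With 1 mouse left out, early estimates whose sign changed ranged from -0.01 to 0.40 (*Ccn1*), -0.27 to 0.05 (*Ccn3*), -0.02 to 0.05 (*Wwtr1*), -0.02 to 0.12 (*Piezo2*), -0.06 to 0.06 (*Lats2*), -0.11 to 0.04 (*Srf*) and -0.03 to 0.13 (*Acta2*). Established ones ranged from -0.11 to 0.35 (*Ccn2*), -0.09 to 0.34 (*Ccn5*), -0.17 to 0.00 (*Piezo1*), -2.36 to 1.20 (*Ankrd1*), -0.07 to -0.00 (*Lats2*) and -0.07 to 0.10 (*Trpv4*), and those between WT stages from -0.31 to 0.26 (*Ccn2*), -0.01 to 0.34 (*Ccn3*) and -0.00 to 0.06 (*Yap1*). *Ccn4*, *Ccn5* and *Piezo2* kept their direction and call between WT stages under every alternative run. Precision is limited for *Ccn1* to *Ccn5*, whose genotype intervals in both cohorts hold a change of 1.5-fold on at least 1 side. So does the interval of *Piezo2* in the established cohort.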
